A study of Mus musculus with 16 samples.

Results

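The ovulation and cumulus expansion genes were described in RNA-seq counts of mouse granulosa cells (mGCs). They are the ligands Areg, Ereg and Btc, the matrix genes Has2, Tnfaip6 and Ptx3, the protease gene Adamts1, the transcription factor genes Pgr and Runx1, and the sulfotransferase gene Sult1e1. They were taken by gene name from both count tables, and all 10 were present among 57010 genes. The first experiment held fresh mGCs of ICR mice, 5 libraries labelled Con-mGC and 5 labelled EM-mGC, which address how the cells of mice with endometriosis (EM) differ from those of controls. Con mice had sham surgery without an implant, and EM mice had endometrium from estradiol-treated donor mice stitched to the mesentery of the bowel. Surgery was at 6 weeks of age, the recipients then had 17β-estradiol every other day for 14 days followed by a washout, and ovulation was induced on day 30. It is not stated whether the sham mice received estradiol, which hormone was given to the sequenced mice, or how many hours after it the cells were taken, and an allograft on the mesentery is a surgical model of the disease. The second experiment held mGCs from 6 EM mice, cultured in medium with 5% fetal bovine serum and given 100 nM 14,15-EET or the same volume of PBS for 24 h, 3 libraries each. A figure legend of the paper puts 24 h of culture before this addition. The second experiment addresses the response to 14,15-EET, an epoxide of arachidonic acid that soluble epoxide hydrolase breaks down.

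Granulosa cells line the ovarian follicle, and the cumulus cells among them surround the oocyte. After the surge of luteinizing hormone (LH), mural granulosa cells release EGF-like ligands, which act on the EGF receptor of granulosa and cumulus cells. Cumulus cells then build a matrix of hyaluronan chains held together by proteins, in which the oocyte is shed, and most genes of this program are on for a few hours only.

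Promoters of 8 of the 10 genes, all but Has2 and Ereg, were matched in a table from RefSeq (GRCm38.p6). The windows run from 250 bases before the transcription start to 50 bases after it. Those of Areg, Tnfaip6 and Ptx3 are shown as a ligand, a matrix gene that varied widely among the fresh libraries, and a matrix gene with another order of libraries. Capitals mark matches to the textbook motifs of CREB (TGACGTCA), AP-1 (TGANTCA), C/EBP (TTGCNNAA), RUNX (TGTGGT) and the TATA box (TATAAA), searched on both strands. The Areg window is chr5:91139349-91139648 on the plus strand, the Tnfaip6 window chr2:52037863-52038162 on the plus strand, and the Ptx3 window chr3:66219637-66219936 on the plus strand.
Areg: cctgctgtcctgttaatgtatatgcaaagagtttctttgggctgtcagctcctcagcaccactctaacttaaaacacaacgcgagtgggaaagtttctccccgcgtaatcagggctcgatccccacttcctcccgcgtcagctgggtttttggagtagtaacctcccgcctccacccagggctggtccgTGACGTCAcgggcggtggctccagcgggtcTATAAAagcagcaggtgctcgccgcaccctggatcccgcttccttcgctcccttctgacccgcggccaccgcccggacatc
Tnfaip6: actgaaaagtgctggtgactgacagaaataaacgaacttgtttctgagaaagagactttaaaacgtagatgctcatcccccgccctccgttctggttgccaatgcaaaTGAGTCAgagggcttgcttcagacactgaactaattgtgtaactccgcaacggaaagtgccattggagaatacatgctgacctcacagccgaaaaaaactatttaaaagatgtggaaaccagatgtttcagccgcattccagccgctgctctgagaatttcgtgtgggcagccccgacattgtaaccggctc
Ptx3: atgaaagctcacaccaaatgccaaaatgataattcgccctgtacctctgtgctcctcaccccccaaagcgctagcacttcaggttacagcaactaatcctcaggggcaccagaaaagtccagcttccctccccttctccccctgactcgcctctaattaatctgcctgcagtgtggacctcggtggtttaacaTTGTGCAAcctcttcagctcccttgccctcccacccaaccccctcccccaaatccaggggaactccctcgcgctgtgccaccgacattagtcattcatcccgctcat
The Areg window held TGACGTCA, the binding motif of the cAMP-responsive factor CREB, at -61 and a TATA box at -31. Of 32851 promoter windows in the table, 1.79% held TGACGTCA and 13.6% held TATAAA. The Tnfaip6 window held an AP-1 motif at -142, which 7.81% of windows had, and the Ptx3 window held a C/EBP motif at -57, which 10.8% had. Among the other 5 genes, Adamts1 had a TATA box at -32, Sult1e1 had AAGGTCA, the SF-1 motif, at -113 on the minus strand (4.72% of windows), Runx1 had TGTGGT at 29 and 37 on the minus strand of the first of its 2 windows (16.8%), Pgr had TATAAA at -212 on the minus strand, and Btc had none of the motifs in capitals. These matches are descriptions of the letters.

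Areg, Ereg and Btc lie together on chromosome 5 in the deposited GRCm39 coordinates. Ereg is at chr5:91222481-91241505 and Areg at chr5:91287458-91296291, both on the plus strand and 46.0 kb apart, and Btc follows at chr5:91505120-91550853 on the minus strand, 209 kb from Areg. Sult1e1 is on the same chromosome at chr5:87723828-87739453. Has2 is at chr15:56529023-56557935, Tnfaip6 at chr2:51928021-51946698, Ptx3 at chr3:66127331-66133226, Adamts1 at chr16:85590715-85600001, Runx1 at chr16:92398354-92623037 and Pgr at chr9:8899834-8968612. Genes counted on the opposite strand overlap Has2 (Has2os), Ereg (Gm19610), Ptx3 (Veph1) and Runx1 (Gm26626). The strand setting of the counting is not given in the sources used here, so values of these genes may hold reads of the overlapping gene. Has2os stayed at or below 0.729 CPM (reads of a gene scaled to the library total) and Gm19610 at or below 1.51 CPM in every library, and in Con-mGC-1 Has2os had 12 reads where Has2 had 5. Gm26626 stayed at or below 0.574 CPM. Veph1 was at 0.229 to 1.03 CPM in the fresh libraries and at 2.15 to 2.95 CPM in the cultured ones.

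Total counts were 14229123 to 15999234 in the fresh libraries and 21384686 to 29482826 in the cultured ones. At these depths a gene at or under 1 CPM rested on few reads, which limits its precision. Granulosa markers were present in every fresh library, with Fshr at 42.4 to 178 CPM and Cyp19a1 at 139 to 622 CPM. In the PBS libraries Foxl2 (138 to 157 CPM) and Inha (2528 to 3047 CPM) were present, while Cyp19a1 was at 0 to 0.374 CPM and Lhcgr, the LH receptor gene, at 0.263 to 0.457 CPM. Fresh libraries also held transcripts of other cells. Summed markers of oocytes were at 126 to 929 CPM, of neutrophils at 6.73 to 57.3 CPM in Con and 40.1 to 169 CPM in EM, and of red blood cells at 2439 to 16049 CPM. Ovarian stromal markers summed to 589 to 1608 CPM. The theca list summed to 4814 to 9825 CPM. It includes Star, also in the list of ovulatory response genes used below, and so does not measure theca cells alone. The highest neutrophil sum and the lowest granulosa marker sum, 5818 CPM, were both in EM-mGC-4, and EM-mGC-3 had the highest red blood cell sum and 21.8% of its counts on mitochondrial genes. Among the Con libraries, the lowest granulosa marker sum was that of Con-mGC-2, at 11260 CPM. In bulk RNA, fewer cells that express a gene and less RNA per cell cannot be told apart.

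Per exon length, Adamts1 was the most abundant of the 10 genes in every group, with 15.6 ± 3.63 RPKM (CPM divided by the exon length in kilobases, mean ± SD, n = 5) in Con and 54.9 ± 11.3 RPKM (n = 3) in PBS. Tnfaip6 and then Runx1 followed in all groups. In Con the next were Ereg (1.12 ± 2.10 RPKM), Areg (0.918 ± 1.16 RPKM), Ptx3 (0.825 ± 0.177 RPKM), Sult1e1 (0.506 ± 1.13 RPKM), Btc (0.471 ± 0.391 RPKM), Pgr (0.360 ± 0.250 RPKM) and Has2 (0.208 ± 0.0941 RPKM). Below Adamts1, each gene differed from the next in this order by less than the larger of their SDs. In PBS the order after Runx1 was Ptx3 (2.05 ± 0.311 RPKM), Ereg (0.506 ± 0.0811 RPKM), Areg (0.460 ± 0.0718 RPKM), Btc (0.296 ± 0.0295 RPKM) and Has2 (0.191 ± 0.0563 RPKM), with Pgr and Sult1e1 at or near 0. Tnfaip6 and Runx1, at 6.58 ± 0.713 and 6.46 ± 0.0977 RPKM, could not be ordered there.

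**Figure D1:**
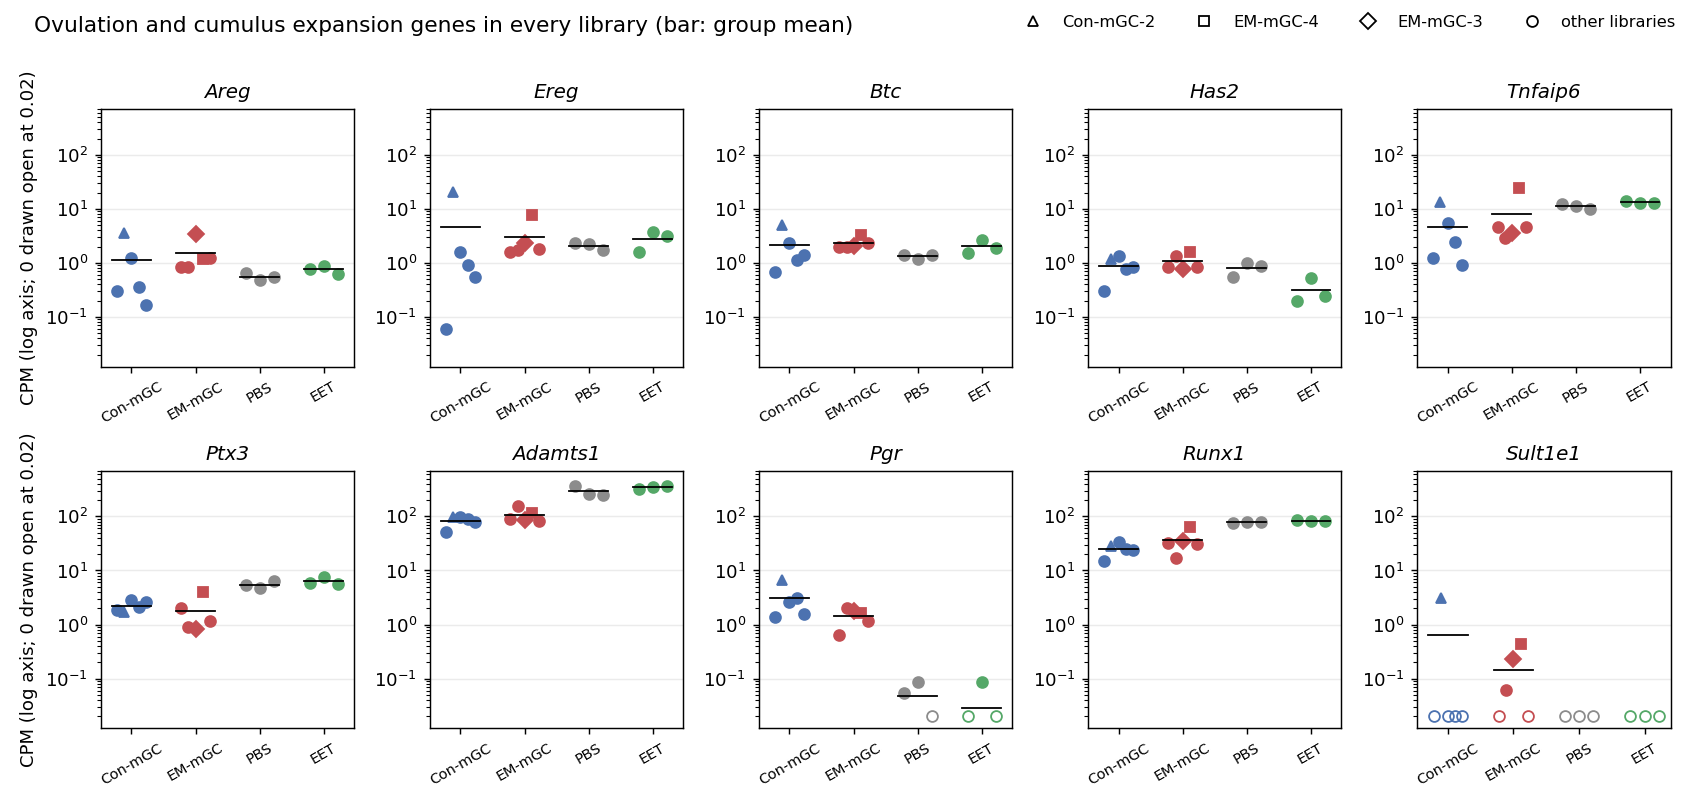
CPM (log axis) of the 10 genes in each of the 16 libraries, with the group mean as a bar, libraries at 0 drawn open at 0.02, and Con-mGC-2, EM-mGC-3 and EM-mGC-4 given their own symbols. Con-mGC-2 stands above the other Con libraries for Areg, Ereg, Btc, Tnfaip6, Pgr and Sult1e1, EM-mGC-4 above the other EM libraries for Ereg and Tnfaip6, and the cultured libraries lie closer together than the fresh ones for Areg, Ereg and Tnfaip6.

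None of the 9 tested genes differed between the EM and Con groups beyond the spread between mice (0 called, Sult1e1 having too few counts, by the quasi-likelihood test of edgeR, p adjusted over 17229 genes). Over all genes the share called was 0% as well. Of the 9 genes, only Pgr had an unadjusted p under 0.05, beside 9.44% of all genes tested. DESeq2 called 0 of the 9 too, but gave no p for Ereg and so could not call it. In none of the 9 did the EM and Con libraries separate, where 1.69% of all tested genes did. Areg, Ereg and Tnfaip6 varied widely among mice of the same group.

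Areg encodes amphiregulin, an EGF receptor ligand released by mural granulosa cells. It had 3 to 63 reads in a Con library, with 0.304, 3.54, 1.21, 0.360 and 0.164 CPM in Con-mGC-1 to Con-mGC-5. The EM libraries had 0.838, 0.848, 3.44, 1.19 and 1.21 CPM in the same order. The groups overlapped, each with 1 library near 3.5 CPM, and the log2 fold change in EM was 0.40 ± 0.73 (SE; adjusted p = 0.876, edgeR). Leaving out Con-mGC-2 gave 1.53, and leaving out EM-mGC-3 gave -0.14.

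Ereg encodes epiregulin, a second ligand of the family. Its reads ran from 1 in Con-mGC-1 to 358 in Con-mGC-2, with 0.0607, 20.1, 1.56, 0.900 and 0.547 CPM in the 5 Con libraries. The EM libraries had 1.61, 1.76, 2.29, 7.63 and 1.84 CPM. Con thus held both the highest and the 4 lowest values, and the EM values lay between them. The log2 fold change was -0.62 ± 1.03 (SE; adjusted p = 0.863, edgeR), and without Con-mGC-2 it turned to 1.97, with an adjusted p of 0.648 from edgeR. Without EM-mGC-4 it was -1.32.

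Btc encodes betacellulin, the third ligand. It was at 0.668, 5.11, 2.31, 1.14 and 1.42 CPM in Con and at 1.93, 1.998, 2.07, 3.31 and 2.35 CPM in EM. The EM libraries lay within the Con range, and the log2 fold change was 0.12 ± 0.46 (SE; adjusted p = 0.944, edgeR). All 3 ligands were highest of the 10 fresh libraries in Con-mGC-2, and for Ereg and Btc EM-mGC-4 came second.

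Has2 encodes the synthase that makes hyaluronan. It had 5 to 25 reads per fresh library, with 0.304, 1.18, 1.33, 0.780 and 0.821 CPM in Con and 0.838, 1.33, 0.765, 1.56 and 0.825 CPM in EM. The values overlapped throughout, with a log2 fold change of 0.27 ± 0.39 (SE; adjusted p = 0.840, edgeR).

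Tnfaip6 encodes TSG-6, which carries heavy chains of inter-alpha-inhibitor onto hyaluronan. It was at 1.21, 13.4, 5.43, 2.40 and 0.931 CPM in Con and at 4.51, 2.85, 3.59, 23.8 and 4.63 CPM in EM. The highest library of each group, Con-mGC-2 and EM-mGC-4, stood well above the next value of its group. The log2 fold change was 0.75 ± 0.76 (SE; adjusted p = 0.761, edgeR), and it was -0.27 without EM-mGC-4 and 1.66 without Con-mGC-2.

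Ptx3 encodes pentraxin 3, which organizes the matrix together with TSG-6. Con libraries had 1.82, 1.74, 2.83, 2.10 and 2.57 CPM, and EM libraries 1.999, 0.908, 0.841, 4.06 and 1.14 CPM. Con-mGC-2, the highest library for the ligands, was the lowest of Con for Ptx3. Of the EM libraries 3 lay below all Con libraries and 1 lay above them, and the log2 fold change was -0.30 ± 0.42 (SE; adjusted p = 0.830, edgeR).

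Adamts1 encodes a secreted protease that cleaves versican in the expanding matrix. It was at 51.1, 96.2, 97.6, 90.3 and 77.9 CPM in Con and at 88.9, 158, 87.7, 115 and 81.5 CPM in EM. The spread was small beside that of the ligands, the groups overlapped, and the log2 fold change was 0.36 ± 0.21 (SE; adjusted p = 0.601, edgeR). Its highest library was EM-mGC-2, which also had the highest granulosa marker sum, 20090 CPM.

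Pgr encodes the progesterone receptor, which LH induces in mural granulosa cells and which is needed for follicle rupture. It was at 1.40, 6.68, 2.66, 3.06 and 1.59 CPM in Con and at 0.645, 2.06, 1.76, 1.63 and 1.14 CPM in EM. Con-mGC-2, Con-mGC-3 and Con-mGC-4 lay above every EM library, and the other Con libraries lay among them. The log2 fold change was -1.09 ± 0.45 (SE), with an unadjusted p of 0.0319 and an adjusted p of 0.510 from edgeR. A two-sided exact permutation test over the 10 libraries gave p = 0.0873, where the smallest it allows is 0.00794. Without Con-mGC-2 the log2 fold change was -0.59.

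Runx1 encodes a transcription factor of the periovulatory follicle. It was at 14.9, 28.6, 34.2, 25.3 and 23.8 CPM in Con and at 32.0, 16.9, 35.6, 64.5 and 31.3 CPM in EM. EM-mGC-4 was again the highest, and the log2 fold change was 0.50 ± 0.30 (SE; adjusted p = 0.606, edgeR), or 0.18 without that library.

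Sult1e1 encodes the sulfotransferase that inactivates estrogens. Con-mGC-2 had 56 reads (3.14 CPM) and the other 4 Con libraries had 0, which allows up to 0.164 to 0.182 CPM in a library (3 counts). The EM libraries had 0, 1, 3, 7 and 0 reads, at most 0.438 CPM. Nearly all of its reads in the fresh cells thus came from Con-mGC-2 and EM-mGC-4, and the filter on low counts left it out of the main fit.

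**Figure D2:**
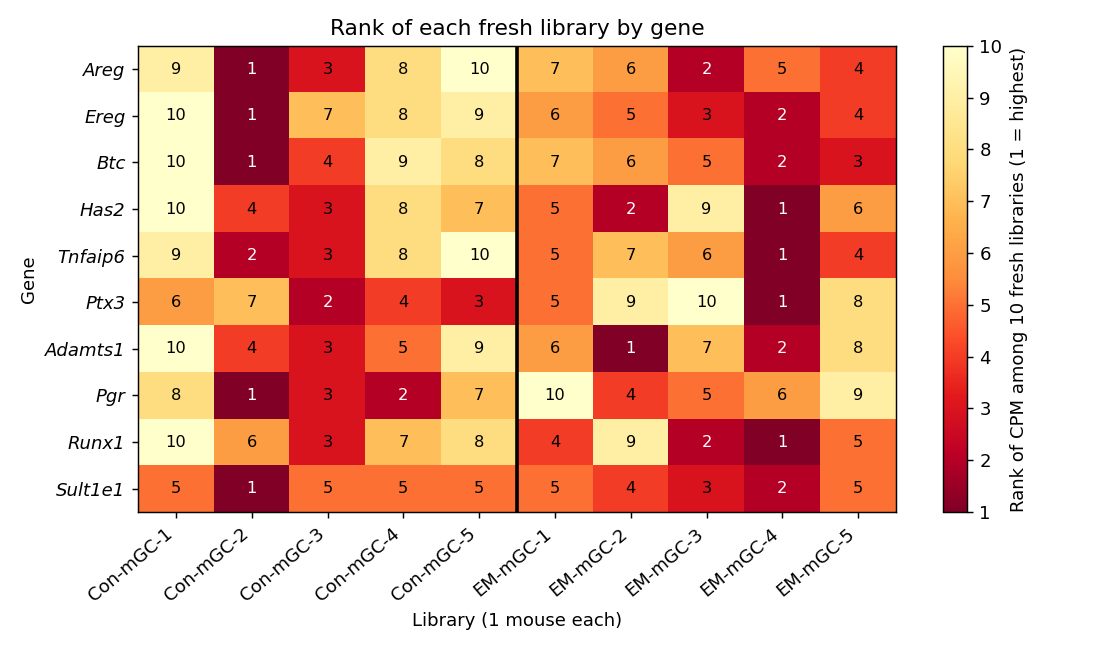
Rank of the CPM of each gene (vertical axis) among the 10 fresh libraries (horizontal axis), where 1 is the highest and libraries with 0 reads of Sult1e1 share a rank. Con-mGC-2 ranks first for 5 genes and EM-mGC-4 for 4, while Con-mGC-1 is among the lowest 2 for 7.

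Set side by side, 2 fresh libraries ranked first for 9 of the 10 genes. Con-mGC-2 was the highest library for Areg, Ereg, Btc, Pgr and Sult1e1, and EM-mGC-4 was the highest for Has2, Tnfaip6, Ptx3 and Runx1 and among the top 2 for 8 of the 10 genes. Adamts1 was highest in EM-mGC-2, and Con-mGC-2 ranked 6 for Runx1 and 7 for Ptx3. Con-mGC-1 was among the lowest 2 for 7 genes and had the lowest value of Ereg, Btc, Has2, Adamts1 and Runx1. It also had the fewest genes detected of the fresh libraries, at 22071, where the others had 25080 (EM-mGC-3) to 27642 (Con-mGC-5). How often each library ranked first or last over all genes was not counted, so these ranks may not be particular to the 10 genes. EM-mGC-4 had the lowest granulosa marker sum of the EM libraries, with the next at 10383 CPM, while Con-mGC-2 was close to Con-mGC-3 (11260 and 11398 CPM). The neutrophil marker sum was 169 CPM in EM-mGC-4 and 167 CPM in EM-mGC-5, and 8.92 CPM in Con-mGC-2. The theca list, which does not measure theca cells alone, summed to 9015 CPM in Con-mGC-2, the highest of Con. It summed to 9263 CPM in EM-mGC-4, below EM-mGC-1 at 9825 CPM. The part of these in the values was not tested.

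Among mice, Ereg, Tnfaip6, Areg and Runx1 varied more than most genes of their abundance. The biological coefficient of variation in the edgeR fit was 1.09 for Ereg, where the trend at its level was 0.350, and 99.8% of the tested genes had a lower ratio of these values. It was 0.799 for Tnfaip6 (trend 0.314, 99.3% lower), 0.769 for Areg (trend 0.408, 97.6% lower) and 0.337 for Runx1 (trend 0.196, 96.4% lower). For Adamts1, Btc, Pgr and Ptx3, 90.2%, 87.1%, 85.6% and 80% of the tested genes had a lower ratio. Has2 was near the trend, at 0.361 against 0.415 (53.6% lower).

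The 5 genes outside the list whose log2 CPM followed the mean standardized level of the 9 tested genes most closely over the 10 fresh libraries were Renbp (Pearson r = 0.938, Spearman rho = 0.855), Lars (0.926 and 0.915), Sgtb (0.915 and 0.891), Elf1 (0.909 and 0.685) and Ptgs2 (0.908 and 0.915). They were the highest of 13020 genes, so the values are descriptions without a test. Without Con-mGC-1 and EM-mGC-4, the libraries at the ends of the scale, the Pearson r of these genes was 0.861, 0.786, 0.794, 0.726 and 0.764. Ptgs2, the prostaglandin synthase gene of the ovulatory follicle, had the widest range of the 5 as a ratio, from 0.607 CPM in Con-mGC-1 to 31.8 CPM in EM-mGC-4, with 14.1 CPM in Con-mGC-2. The range of Renbp, by contrast, was 29.2 to 41.7 CPM.

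**Figure D3:**
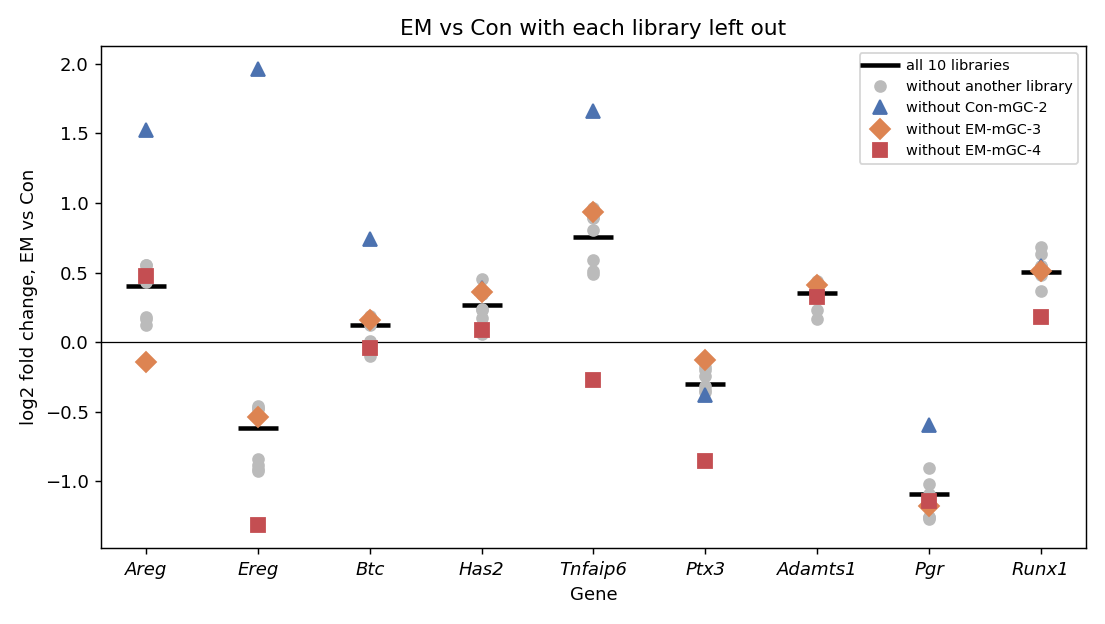
log2 fold change of the 9 tested genes in EM against Con with all 10 libraries (bar) and after leaving out 1 library at a time (points). The points without Con-mGC-2 stand apart for Areg, Ereg, Btc, Tnfaip6 and Pgr, and those without EM-mGC-4 for Ereg, Tnfaip6, Ptx3 and Runx1. Over all points the sign changes for Areg (without EM-mGC-3), Ereg (without Con-mGC-2), Btc (lowest without Con-mGC-1) and Tnfaip6 (without EM-mGC-4).

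No gene of the pathway lists around these 10 was called between EM and Con either. The lists, none of which holds any of the 10, cover EGF family ligands, shedding enzymes and receptors (0 of 12 tested), hyaluronan matrix genes (0 of 14), other ovulatory response genes (0 of 18), transcriptional regulators of ovulation (0 of 16), the LH receptor pathway (0 of 10), and sulfotransferases and estrogen metabolism (0 of 8). At an unadjusted p under 0.05 the counts were 1, 3, 5, 3, 2 and 0. Median log2 fold changes ran from -0.20 for the EGF list to 0.17 for the ovulatory response list, beside -0.01 over all genes. Neutrophil markers had a median of 2.68, with 6 of 6 at an unadjusted p under 0.05 and none called.

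In culture, 14,15-EET left all 8 tested genes short of the threshold (0 of 8 called by edgeR, beside 1.22% of 15050 genes). Pgr and Sult1e1 had too few counts to pass the filter and were not tested in the main fit. By unadjusted p under 0.05 there were 4 of the 8, beside 12.4% of all genes. DESeq2 called 0, but gave no adjusted p for Areg and Has2 and so could not call them. By adjusted p from edgeR, 0.498% of all genes were called higher and 0.724% lower. The methods call the cultured replicates paired but do not tie the pairs to replicate numbers. With the number as a block, 0 of the 8 genes were called as well. Has2 was lower in every EET library than in every PBS library, and Btc, Tnfaip6 and Runx1 were higher in every one. Over all tested genes 17.6% separated in this way, and the exact permutation test with 3 against 3 libraries cannot go below p = 0.1.

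Has2 had the largest difference of the 8. It had 10, 23 and 21 reads in PBS and 5, 12 and 5 reads in EET, which are 0.545, 1.01 and 0.873 CPM against 0.195, 0.519 and 0.239 CPM. The highest EET library lay just under the lowest PBS library. The log2 fold change was -1.35 ± 0.43 (SE; 95% interval -2.29 to -0.42; unadjusted p = 0.00829, adjusted p = 0.192, edgeR). With a library left out it stayed between -1.90 and -1.07. Has2os, on the opposite strand, had 4 reads or fewer in every cultured library.

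Btc was at 1.42, 1.18 and 1.41 CPM in PBS and at 1.52, 2.64 and 1.87 CPM in EET. The log2 fold change was 0.59 ± 0.26 (SE; adjusted p = 0.373, edgeR). Areg (0.654, 0.482 and 0.540 CPM in PBS and 0.781, 0.866 and 0.622 CPM in EET) and Ereg (2.29, 2.28 and 1.70 against 1.60, 3.68 and 3.16 CPM) overlapped between the groups. Their log2 fold changes were 0.46 and 0.43, with adjusted p of 0.592 and 0.574 from edgeR, so all 3 ligands had positive values and none passed the test.

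Tnfaip6 was at 12.5, 11.1 and 10.1 CPM in PBS and at 13.8, 13.1 and 12.8 CPM in EET, a log2 fold change of 0.24 ± 0.10 (SE; adjusted p = 0.349, edgeR). Adamts1 was at 360, 263 and 251 CPM in PBS and at 324, 345 and 373 CPM in EET. Its PBS-1 library lay among the EET libraries, and the log2 fold change was 0.26 ± 0.11 (SE; adjusted p = 0.353, edgeR). Without PBS-1 it was 0.44 and passed, with an adjusted p of 0.00143 from edgeR, and with no filter on low counts it also passed at 0.26, with an adjusted p of 0.000225.

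Ptx3 was at 5.45, 4.69 and 6.36 CPM in PBS and at 5.94, 7.45 and 5.65 CPM in EET, which overlapped. Runx1 was at 76.4, 78.0 and 78.7 CPM in PBS and at 85.1, 81.0 and 80.8 CPM in EET. Its groups separated, but the log2 fold change was only 0.09 ± 0.05 (SE; 95% interval -0.02 to 0.20; adjusted p = 0.483, edgeR). Pgr had 1, 2 and 0 reads in PBS and 0, 2 and 0 in EET, and Sult1e1 had 0 reads in all 6 libraries, which allows up to 0.0460 CPM over the PBS group and 0.0431 CPM over the EET group (3 counts each).

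The wider lists held few calls in this comparison, in which 1.22% of all genes were called. Of 13 tested EGF family genes 0 were called (1 by unadjusted p under 0.05), and of 13 hyaluronan matrix genes also 0 (6 by unadjusted p, which 12.4% of all genes passed). Among 15 other ovulatory response genes, Ptger2, a prostaglandin E2 receptor gene, fell (log2 fold change -0.51, adjusted p = 0.0365, edgeR), from 44.5 ± 6.71 to 31.2 ± 3.38 CPM (mean ± SD, n = 3). Among 15 transcriptional regulators the immediate early genes Fos (-0.80, adjusted p = 0.00611, edgeR) and Egr1 (-0.76, adjusted p = 0.000561, edgeR) fell, and Cebpa, a factor needed for ovulation together with Cebpb, rose (0.32, adjusted p = 0.0236, edgeR). Of 9 genes of the LH receptor pathway only Prkar2b, a regulatory subunit of protein kinase A, passed (0.44, adjusted p = 0.00611, edgeR). Of 6 sulfotransferase and estrogen genes 0 passed, with 3 at an unadjusted p under 0.05. At that level there were also 7 of the 15 ovulatory response genes, 5 of the 15 transcriptional regulators and 1 of the 9 LH receptor pathway genes.

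The cultured PBS cells were also compared with the fresh EM-mGCs, both from mice of the EM model. Culture, the experiment, the mice and the sequencing cannot be told apart in this comparison, and it shares the EM-mGC libraries with that of EM against Con. Of 17301 genes tested, 69.0% were called, so a call was the usual outcome. The count for the 10 genes was 6 of 9 tested, with Ptx3, Adamts1 and Runx1 higher in culture (3, beside 31.1% of all genes) and Areg, Btc and Pgr lower (3, beside 37.9%). The groups separated for these 6 as well, and for 66.3% of all genes.

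Pgr fell most, from 0.645 to 2.06 CPM in the fresh EM libraries to 0.0545, 0.0877 and 0 CPM in PBS. The log2 fold change was -4.79 ± 0.69 (SE; adjusted p = 0.000179, edgeR). It rests on 111 reads in EM against 3 in PBS, a ratio of 31.4 with a 95% counting interval of 10.5 to 155. Lhcgr, the LH receptor gene, fell by 11.25 on the log2 scale (adjusted p = 3.74e-08, edgeR). It went from 599 to 1033 CPM in EM to at most 0.457 CPM in PBS. Whether the falls of Pgr and Lhcgr are linked was not tested.

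Adamts1, Runx1 and Ptx3 rose. Adamts1 went from 81.5 to 158 CPM in EM to 251 to 360 CPM in PBS (log2 fold change 1.44 ± 0.22, SE; adjusted p = 0.000231, edgeR). Runx1 went from 16.9 to 64.5 CPM to 76.4 to 78.7 CPM (1.08 ± 0.32, SE; adjusted p = 0.0126, edgeR). Ptx3 went from 0.841 to 4.06 CPM to 4.69 to 6.36 CPM (1.58 ± 0.47, SE; adjusted p = 0.0118, edgeR). All PBS values of these 3 genes lay above all EM values, with EM-mGC-4 the highest EM library for Runx1 and Ptx3. Veph1, which overlaps Ptx3 on the other strand, also had higher values in PBS, at 2.45 to 2.95 against 0.229 to 0.875 CPM, and its part in the Ptx3 counts was not tested.

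Among the ligands, Areg was lower in PBS, at 0.482 to 0.654 against 0.838 to 3.44 CPM (log2 fold change -1.43 ± 0.54, SE; adjusted p = 0.0358, edgeR). Btc was also lower, at 1.18 to 1.42 against 1.93 to 3.31 CPM (-0.82 ± 0.28, SE; adjusted p = 0.0219, edgeR). Neither call held when any 1 PBS library was left out, with adjusted p of 0.0718, 0.109 and 0.0945 for Areg and 0.0559, 0.0843 and 0.0564 for Btc from edgeR without PBS-1, PBS-2 and PBS-3. Ereg overlapped, at 1.70 to 2.29 against 1.61 to 7.63 CPM. Its log2 fold change of -0.56 was 0.13 without EM-mGC-4.

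Has2 and Tnfaip6 did not pass. Has2 was at 0.545 to 1.01 CPM in PBS and 0.765 to 1.56 CPM in EM (log2 fold change -0.41 ± 0.37, SE; adjusted p = 0.338, edgeR). Tnfaip6 was at 10.1 to 12.5 CPM in PBS, above 4 of the 5 EM libraries and below EM-mGC-4 at 23.8 CPM. Its log2 fold change was 0.48 ± 0.63 (SE; adjusted p = 0.512, edgeR), and without EM-mGC-4 it was 1.496 with an adjusted p of 0.000282 from edgeR. Sult1e1 had 11 reads over the EM libraries and 0 in PBS, and the filter on low counts left it out of the main fit. With no filter it passed narrowly, with an adjusted p of 0.0497 from edgeR.

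**Figure D4:**
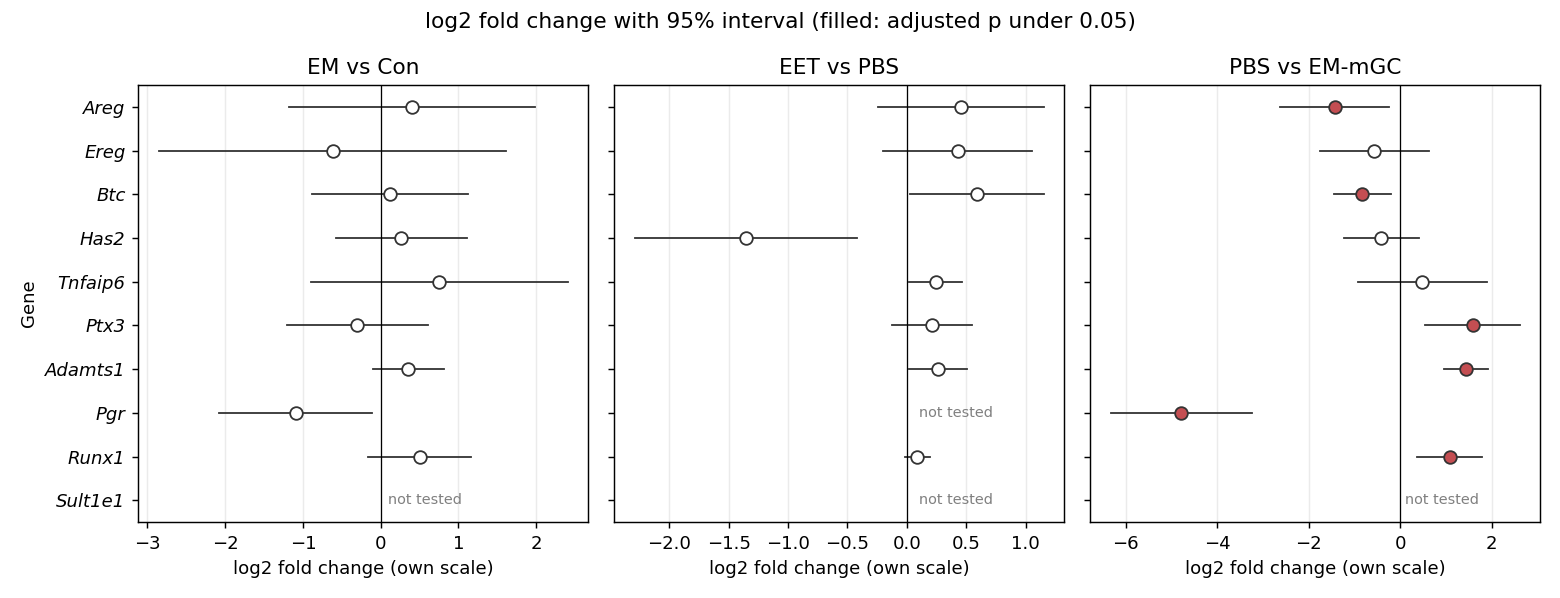
log2 fold change with its 95% interval for each gene in EM against Con, EET against PBS and PBS against EM-mGC (each panel with its own scale), where filled points have an adjusted p under 0.05. The first comparison and the second have 0 filled points, and the third has 6.

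Around the 10 genes, the cultured cells differed from the fresh ones in both directions. Of 13 EGF family genes 6 were higher and 2 lower, with the receptor gene Erbb4 at 3.67 and the ligand gene Nrg1 at 3.42, and with Nrg4 at -2.39 and the feedback inhibitor gene Errfi1 at -1.57 (log2 fold changes). Of 15 hyaluronan matrix genes 7 were higher and 7 lower, among them Vcan, the versican that ADAMTS1 cleaves, at -4.58, the heavy chain genes Itih2 and Itih5 at -5.13 and -5.01, and Cemip, which takes part in breaking down hyaluronan, at 3.21. Other ovulatory response genes gave 5 higher and 7 lower of 18, with Ptger2 at 3.70 and Zbtb16, Rgs2 and Il6 at -7.33, -5.08 and -4.45. Of 16 transcriptional regulators 3 were higher, Cebpb at 3.07 among them, and 12 lower, with Nr5a2 at -2.92, Fos at -2.63 and Egr1 at -1.70. The LH receptor pathway had 6 higher and 3 lower of 10, and sulfotransferases and estrogen metabolism 2 higher and 4 lower of 8, with Cyp19a1, the aromatase gene, at -10.59 and Sult1a1 at -6.34. Medians were 0.37, -0.63, 0.36, -0.90, 0.49 and -0.83 in this order, beside -0.11 over all genes. In the same comparison 11 of 12 granulosa markers, 10 of 10 oocyte markers, 6 of 6 endothelial, 8 of 8 leukocyte and 6 of 6 neutrophil markers were lower in culture. Other lists were mixed, with 1 higher and 2 lower of 5 theca markers, and 2 higher and 6 lower of 8 surface epithelial markers. Of the theca markers, Cyp17a1 (-12.43) and Insl3 (-4.15) were lower and Aldh1a1 (3.15) was higher. Star (-0.21) and Cyp11a1 (-0.41) were not called. The sum over the theca list, which mixes these directions, was at 9003 to 10353 CPM in PBS and 4814 to 9825 CPM in EM. Summed oocyte markers were at 1.20 to 1.36 CPM and neutrophil markers at 0 to 0.166 CPM in PBS. The part of these cells in the fresh levels was not tested.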

How the data were processed

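Poly(A) RNA libraries that keep the strand were sequenced on a NovaSeq 6000. The authors deposited raw read counts per Ensembl gene from featureCounts, in a table for each experiment, without normalization. The submitters' processing notes name fastp, HISAT2, StringTie and GRCm39, with no versions. Reads shared between overlapping genes are uncertain. All columns were used (0 unused).

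Genes were filtered with filterByExpr, normalized by TMM and compared by the quasi-likelihood test of edgeR 4.0.16 (R 4.3.3), each comparison in its own fit, with Benjamini-Hochberg adjustment over all genes tested and a threshold of 0.05. Printed CPM use TMM factors over all 16 libraries, and RPKM use GENCODE M21 exon lengths of GRCm38. The 95% intervals are from edgeR's standard error, and counting intervals and limits for 0 reads cover counting error only. Cells of 6 mice were divided into a part for each culture group, giving 3 replicates that the methods call paired. Which mice made up a replicate and whether equal numbers mark pairs is not stated. Within each group, libraries differed beyond sampling noise.

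The 10 genes, the lists and the motifs were chosen with earlier results of these data known. From each pathway list up to 4 called genes with the largest change and a mean of at least 1 log2 CPM are named, and so are the 5 genes most like the 10 across the fresh libraries. Markers cited to check the tissue, overlapping genes, and the per-library values of Ptgs2 and Lhcgr were named beside these. Alternatives were DESeq2 1.42.0, RLE factors, no filter, no mitochondrial genes, a replicate block and leaving out each library. Counts were simulated with 200 genes changed by a log2 fold change of 2, drawn only from genes above a count cutoff. Of these, edgeR recovered 195 (EM against Con), 200 (EET against PBS) and 193 (PBS against EM-mGC), with 11, 11 and 8 false calls. Has2, with 5 to 25 reads per fresh library, lay below the cutoff in EM against Con, as did Areg, Btc, Ptx3 and Pgr by their mean. The recovery therefore does not cover these genes, others with few reads, or smaller changes.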

Additional observations from a re-analysis of the deposited data

Results flagged for a closer look

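Values that stood apart from the rest of their group by Dixon's test (95% critical value for 5 samples) were found in 5 of 20 tests, made on each of the 10 genes in Con and in EM. Chance gives about 1 in 20 groups for independent, normal values. Over all 17229 genes tested, 8.95% were so marked in Con and 6.96% in EM, and leaving out Sult1e1, for which 4 Con libraries at 0 made the result certain, 1 of 9 genes was in Con and 3 of 9 in EM. Con-mGC-2 stood apart for Ereg, at 20.1 CPM with the nearest Con library at 1.56 CPM, and for Sult1e1, at 3.14 CPM with the others at 0. EM-mGC-4 stood apart for Ereg, at 7.63 CPM with the nearest EM library at 2.29 CPM, and for Tnfaip6, at 23.8 CPM with the nearest at 4.63 CPM. EM-mGC-3 stood apart for Areg, at 3.44 CPM with the nearest at 1.21 CPM. The 3 libraries were not left out together, since they were picked by these values.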

How the results depend on the processing

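Between EM and Con, edgeR called 0 genes, DESeq2 113, edgeR without a filter 4, and between 0 and 46 with a library left out (46 without Con-mGC-3). The count for the 10 genes was 0 in each of these. Leaving out 1 library gave log2 fold changes of -1.32 to 1.97 for Ereg, -0.10 to 0.74 for Btc, -0.14 to 1.53 for Areg and -0.27 to 1.66 for Tnfaip6, none called. DESeq2 gave no p for Ereg here or for Tnfaip6 in PBS against EM-mGC, and no adjusted p for Areg and Has2 in EET against PBS. Between EET and PBS, the count of all genes called was 184, 341 with DESeq2, 662 without a filter and 48 to 436 with a library left out (48 without EET-3, 61 without EET-2, 122 without EET-1, 350 without PBS-1, 436 without PBS-2). For the 10 genes the count was 1 (Adamts1) without a filter, and 0 to 1 with a library left out. In PBS against EM-mGC it was 4 to 7 with a library left out, Btc had an adjusted p of 0.0603 without a filter (edgeR), and Ereg ranged from -0.74 to 0.13. RLE factors and the removal of mitochondrial genes changed no call or direction of the 10 genes.

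Libraries with the same number did not deviate together, with correlations of -0.252 to 0.222 in EM and Con and -0.0238 to 0.0980 in EET and PBS, so the numbers were not taken to pair them, although the methods call the cultured replicates paired. With the replicate number as a block, 2 genes were called in EM against Con and 341 in EET against PBS, and 0 of the 10 genes in either. Ereg then had a log2 fold change of 1.12 in EM against Con. In PBS against EM-mGC the block, which drops 2 EM libraries without a partner from the contrast, gave 0.092 for Ereg, 1.58 for Tnfaip6 (adjusted p = 0.000663, edgeR) and -0.64 for Btc (adjusted p = 0.151, edgeR). The cause of these shifts was not tested. The filter on low counts left Pgr in EET against PBS, and Sult1e1 in every comparison, without a test. Without the filter, Sult1e1 passed in PBS against EM-mGC (log2 fold change -4.42, adjusted p = 0.0497, edgeR), on 11 reads in EM against 0. It did not pass in EM against Con (-2.08, adjusted p = 0.648, edgeR), nor did Pgr in EET against PBS (-0.59, adjusted p = 0.924, edgeR).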
